A study of Mus musculus with 6 samples.

Results

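The 38 genes described here encode the machinery that makes ribosomes: nucleolar proteins, RNA polymerase I with its factors, the core proteins of small nucleolar ribonucleoproteins (snoRNPs), and factors that assemble the small and the large ribosomal subunit. They were chosen by gene symbol from a given list, and all 38 were found among the 52550 genes of the deposited files. Messenger RNA was sequenced from mouse bone marrow cells labelled as hematopoietic stem cells, in 3 knockout (KO) and 3 wild-type (WT) libraries. In KO mice floxed alleles of Ppp2ca, which encodes the chief catalytic subunit of the phosphatase PP2A, were combined with a Cre driver that acts across blood cells (VAV1crePpp2caf/f). WT mice carried the same floxed alleles with no Cre named (Ppp2caf/f). The sources used here give neither age nor the surface markers of the isolation, nor whether each library came from its own animal, so p-values measure the spread between these 6 libraries.

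Ribosome production starts in the nucleolus, where RNA polymerase I transcribes a long precursor of the ribosomal RNAs (rRNAs). Small nucleolar RNAs (snoRNAs) of the box C/D kind guide methylation of that precursor, those of the box H/ACA kind guide pseudouridylation, and a few take part in its cleavage. Assembly factors then fold and trim the particles of the small and the large subunit before export to the cytoplasm. Adult blood stem cells are known for a low rate of protein synthesis, and the progenitors that arise from them for a higher one.

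Levels are normalised reads, which are whole reads per gene divided by a size factor per library and not by gene length. Total reads per library lay between 37951985 and 58692037. Ppp2ca had 23728, 22419 and 24046 normalised reads in KO libraries, against 32909, 33451 and 33169 in WT libraries. The KO mean was 70.5% of the WT mean (log2 fold change −0.50 ± 0.07 SE, adjusted p = 0.00268), a value over the whole gene that does not isolate the deleted part. The labelled cell type was checked against markers. In WT libraries the stem cell genes Hlf, Mecom and Procr averaged 1264 ± 379, 1419 ± 432 and 559 ± 114 normalised reads (SD, n = 3), and all 3 were lower in KO libraries, at 504 ± 105, 295 ± 45.9 and 125 ± 48.0. The granulocyte-monocyte progenitor gene Mpo averaged 1237140 ± 83065 in KO libraries and 954999 ± 73004 in WT libraries. In WT libraries 9 markers of such progenitors held 3.04% of reads and 12 stem cell markers 0.212%, against 4.04% and 0.0815% in KO libraries. Both groups thus held progenitor RNA beside stem cell RNA. The check does not establish that the cells were pure stem cells.

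Genes of ribosome production were higher in KO libraries as a group. Of the 38 genes, 25 rose, 0 fell and 13 failed to pass. The test was limma on log2(value + 1) with Benjamini-Hochberg adjustment over all 20136 tested genes and a threshold of 0.05. Over all tested genes 10.3% rose and 13% fell. Among the 38 genes, 65.8% rose, and among the 7032 tested genes in the same range of mean level, 21.8% rose. No gene was lower at an unadjusted p below 0.05 either (0 of 38), and edgeR and DESeq2 on the recovered reads each called 0 lower. Fitted log2 fold changes ran between 0.01 and 0.95 with a median of 0.45. The median was −0.02 over all tested genes and 0.10 over the 7032 genes in the same range of mean level. In 31 of the 38 genes all 3 KO values lay above all 3 WT values, in 0 they lay below, and in 7 the groups overlapped. Across all tested genes the KO values lay above in 19.1% and below in 21.7%.

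**Figure D1:**
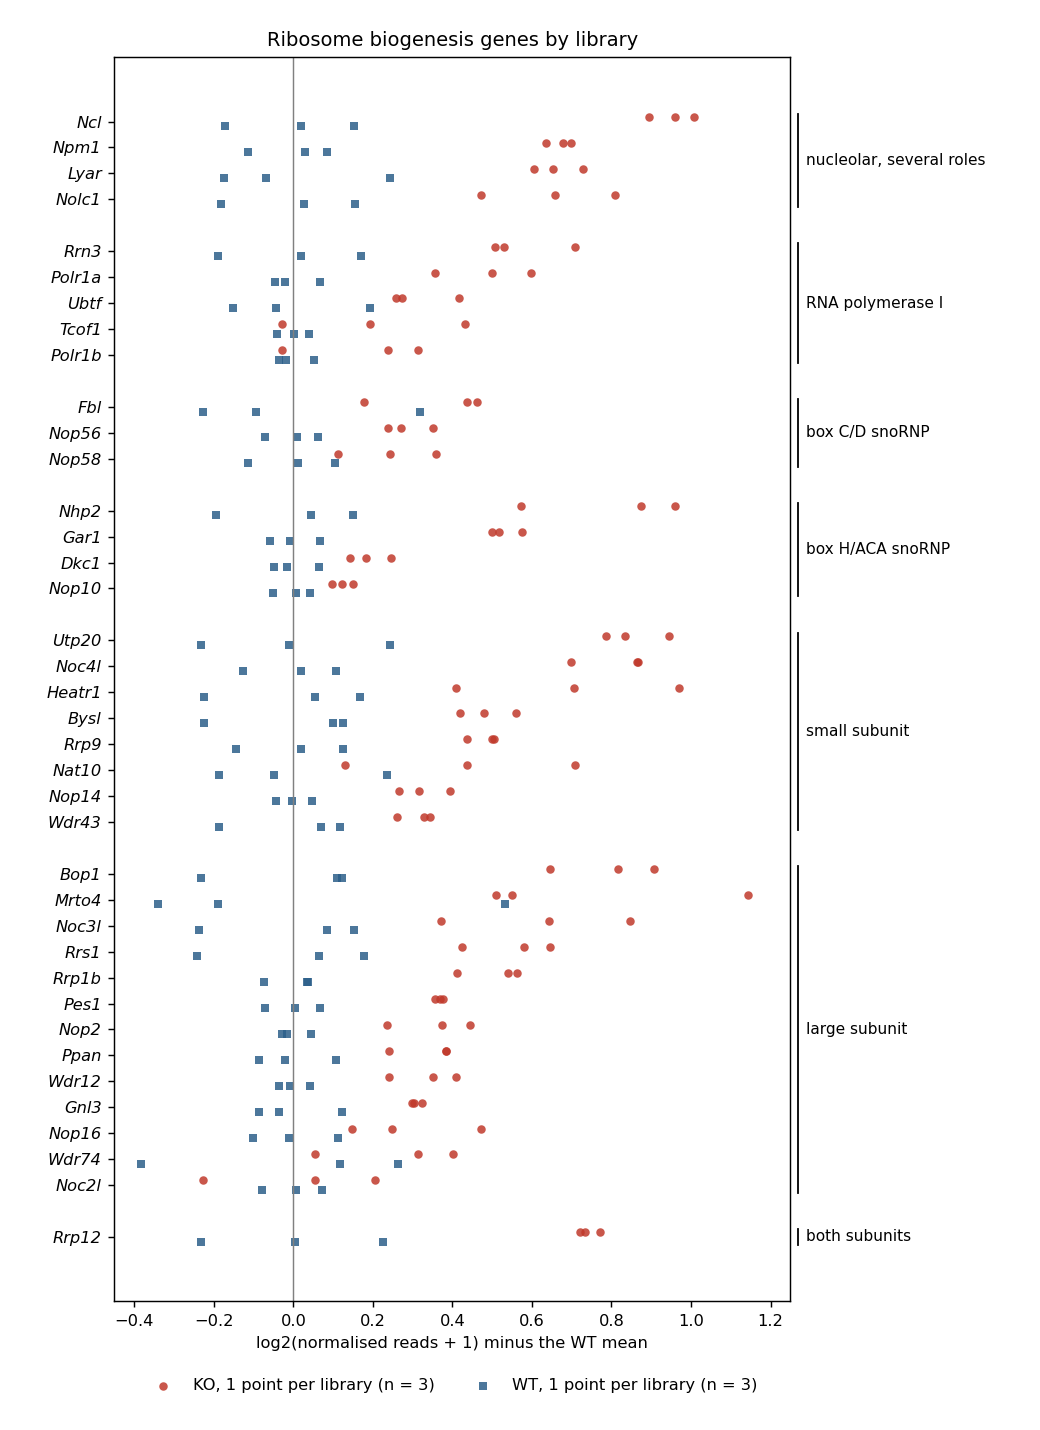
Level of each of the 38 genes in each library, as log2(normalised reads + 1) minus the mean of the 3 WT libraries of that gene, with circles for KO and squares for WT libraries. In 31 genes the 3 KO circles lie to the right of all 3 WT squares, and in 7 they overlap.

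Taken as a share of all reads over genes, the 38 genes held 0.859%, 0.881% and 0.880% in KO libraries, against 0.661%, 0.700% and 0.684% in WT libraries. The groups did not overlap, and the mean was 0.873% ± 0.0121 in KO and 0.682% ± 0.0200 in WT libraries (SD, n = 3 each). The number of calls depended on the fit and on single libraries. In limma without the intensity trend, 10 of the 38 genes passed and 15 calls were lost. Without KO replicate 3, 12 of the 38 genes passed, and without any other library between 20 and 23. The median was 0.44 without KO replicate 3. With every library scaled to a common total, 17 of 38 passed with a median of 0.31, and the median over all genes moved to −0.16. With quantile normalization 19 of 38 passed with a median of 0.36, and the median over all genes moved to 0.08, so that the 38 genes stood 0.28 above it, against 0.48 as reported. The fold change stayed positive in 36 and 35 of the 38 genes under these settings.

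Bulk values cannot tell fewer cells of a type from less RNA per cell, and other cell type markers differed between the same libraries. Of 9 granulocyte-monocyte progenitor markers, 8 rose and 0 fell, with summed levels of 1881160 to 2095050 in KO libraries and 1265850 to 1497030 in WT libraries. Of 12 stem cell markers, 11 fell and 0 rose, with sums of 31581 to 49737 in KO and 90613 to 101764 in WT libraries, and Fgd5 was at 0 in KO replicate 1. Erythroid markers fell in 10 of 12 and rose in 1 (21434 to 36629 in KO, 57224 to 64551 in WT). Of 10 monocyte and macrophage markers, 4 fell and 0 rose (73695 to 90545 in KO, 99772 to 127531 in WT). Among B lineage markers 2 of 7 tested fell and 5 did not pass (5955 to 7193 in KO, 31259 to 54146 in WT). In 1 that did not pass, all KO values lay above all WT values, with a log2 fold change of 2.95. The defining genes Ebf1 and Pax5 were at 0 in all 6 libraries and Ms4a1 in all but WT replicate 1. Among T and NK markers 6 of 8 tested fell (135 to 263 in KO, 1019 to 1445 in WT), and Cd8a was at 0 in all 6 libraries. Of 20 DNA replication genes, 4 rose (20%), 1 fell (5%) and 15 did not pass, against 10.3% higher and 13% lower of all tested genes. Their median was 0.16 on the log2 scale (343498 to 356451 in KO, 296938 to 324455 in WT). As a share of reads, however, the groups overlapped, with 0.686% to 0.704% in KO and 0.668% to 0.701% in WT libraries. The part of these shifts in the results on ribosome production was not tested.

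The nucleolar proteins with several roles all rose (4 of 4), and their median log2 fold change of 0.67 was the highest of the roles with several genes. Ncl (ENSMUSG00000026234.12, GRCm38 chromosome 1, 86344719 to 86359400) encodes nucleolin, which binds nascent pre-rRNA and rDNA chromatin. It had 69503, 66399 and 71814 normalised reads in KO libraries, against 31719, 39740 and 36222 in WT libraries. The lowest KO library stood well above the highest WT library (0.95 ± 0.10 SE, adjusted p = 0.00109). Npm1 (chromosome 11, 33152287 to 33163206) encodes nucleophosmin, a nucleolar chaperone. It had 52726, 54300 and 55124 normalised reads in KO libraries, against 31391, 34645 and 35995 in WT libraries. Its groups were again apart (0.67 ± 0.08 SE, adjusted p = 0.00168). Lyar (chromosome 5, 38220470 to 38234306), a nucleolar protein linked to rRNA transcription and processing, had 4025, 4381 and 4162 in KO libraries, against 2344, 2522 and 3135 in WT libraries. WT replicate 3 was the highest WT library and still below every KO library (0.66 ± 0.12 SE, adjusted p = 0.00833). Nolc1, which encodes the snoRNP chaperone Nopp140, averaged 11849 ± 1380 in KO and 7570 ± 881 in WT libraries (0.65 ± 0.12 SE, adjusted p = 0.00858).

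RNA polymerase I genes moved less evenly: 2 of 5 rose and 3 did not pass, with a median log2 fold change of 0.32. Rrn3 (chromosome 16, 13780699 to 13814840) encodes the initiation factor TIF-IA, which brings the polymerase to the rDNA promoter. It had 6794, 7696 and 6689 normalised reads in KO libraries, against 5295, 4773 and 4131 in WT libraries. All KO libraries were above all WT libraries (0.58 ± 0.11 SE, adjusted p = 0.0102). Polr1a (chromosome 6, 71909053 to 71984935) encodes the largest subunit of the enzyme. It had 3196, 3778 and 3535 in KO libraries, against 2462, 2619 and 2417 in WT libraries. These groups did not overlap either (0.48 ± 0.10 SE, adjusted p = 0.012), and without KO replicate 3 the adjusted p was 0.0552.

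Ubtf encodes the upstream binding factor that keeps rDNA in an active state. It had 5763, 5820 and 6430 normalised reads in KO libraries, against 4336, 4674 and 5507 in WT libraries. The KO values all lay above the WT values, but the difference did not pass (0.32 ± 0.11 SE, adjusted p = 0.0755), except without WT replicate 3 (adjusted p = 0.0358) or with library quality weights. Tcof1 encodes treacle, a nucleolar partner of the polymerase. It had 5272, 7249 and 6147 in KO libraries, against 5381, 5524 and 5224 in WT libraries, and KO replicate 1 lay inside the WT range (0.20 ± 0.12 SE, adjusted p = 0.287). Polr1b encodes the second largest subunit. It had 4947, 6269 and 5952 in KO libraries, against 4985, 5236 and 4926 in WT libraries. KO replicate 1 again lay among the WT libraries (0.17 ± 0.11 SE, adjusted p = 0.29).

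The promoters of these genes were read because MYC, known as an activator of many of them, binds the E-box CACGTG. In the 250 bases before the RefSeq gene start (GRCm38.p6), 32 of the 38 genes had at least 1 window, and some had several, with 41 windows in all. A gene was counted where any of its windows held the letters. CACGTG, which reads the same on both strands, was found for 2 of these 32 genes (6.25%), against 1081 of 11590 tested genes with a window (9.33%) and 6.86% of all 27025 genes with a window. CCGGAAG or its reverse complement CTTCCGG, the core of ETS factor sites, was found for 18.8% of the 32 genes and for 14.6% of the tested genes. GGGCGG or CCGCCC, the core of GC boxes, was found for 59.4% of the 32 genes and for 59.5% of the tested genes. The 2 windows with CACGTG belong to Rrn3 and Nop2, both of which rose, and they are shown 5′ to 3′ on the strand of the gene, with the E-box in capitals. In Rrn3 (chr16:13780449-13780698, plus strand) the boxes begin 215 and 48 bases before the start, and in Nop2 (chr6:125131633-125131882, plus strand) the box begins 60 bases before it. A match is a description of the letters and not a measured binding site. Bases after the start, other forms of the E-box and the genes without a window were not read. The shares therefore do not tell how many of the 38 genes MYC can bind.
Rrn3: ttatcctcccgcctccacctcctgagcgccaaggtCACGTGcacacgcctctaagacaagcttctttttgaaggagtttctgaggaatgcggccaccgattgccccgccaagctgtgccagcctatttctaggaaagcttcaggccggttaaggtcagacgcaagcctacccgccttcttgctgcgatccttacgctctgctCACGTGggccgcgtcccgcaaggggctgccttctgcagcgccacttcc
Nop2: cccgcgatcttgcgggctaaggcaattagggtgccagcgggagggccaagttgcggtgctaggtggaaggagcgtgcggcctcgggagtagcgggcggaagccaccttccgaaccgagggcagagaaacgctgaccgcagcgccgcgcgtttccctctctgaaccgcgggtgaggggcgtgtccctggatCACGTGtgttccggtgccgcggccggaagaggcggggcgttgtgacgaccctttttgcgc

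Myc itself had 10039, 9130 and 8985 normalised reads in KO libraries, against 11198, 13330 and 14591 in WT libraries. All KO libraries were below all WT libraries (−0.47 ± 0.11 SE, adjusted p = 0.0208). The call was lost without KO replicate 3, WT replicate 2 or WT replicate 3, at adjusted p of 0.0823, 0.0646 and 0.0581, and without the intensity trend. Mycn, its paralog known from blood stem cells, had 259, 421 and 265 in KO libraries, against 2670, 2154 and 3038 in WT libraries (−3.07 ± 0.22 SE, adjusted p = 0.000428). Both transcription factor genes fell in the libraries in which 25 of the 38 ribosome production genes rose. Whether either factor had a part in the levels of these genes was not tested.

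Of the box C/D core proteins, 1 of 3 rose, with a median log2 fold change of 0.29. Nop56 (chromosome 2, 130274430 to 130279313), a scaffold of the particle, had 22338, 20639 and 21118 normalised reads in KO libraries, against 18268, 17609 and 16669 in WT libraries. Its groups did not overlap (0.29 ± 0.08 SE, adjusted p = 0.0296). The call was lost without KO replicate 1, KO replicate 3, WT replicate 2 or WT replicate 3, at adjusted p of 0.0787, 0.101, 0.0777 and 0.0833. It was also lost with a common total (log2 fold change 0.14, adjusted p = 0.228) and with quantile normalization (0.057, adjusted p = 0.644). Fbl encodes fibrillarin, the methyltransferase of the particle. It had 4324, 5172 and 5261 in KO libraries, against 3267, 3583 and 4767 in WT libraries. WT replicate 3 stood above KO replicate 1 (0.36 ± 0.15 SE, adjusted p = 0.139), and without that WT library the difference passed (adjusted p = 0.0334). Nop58, the partner of Nop56 in the scaffold, had 12503, 14829 and 13692 in KO libraries, against 10684, 12441 and 11658 in WT libraries. KO replicate 1 was only just above WT replicate 2 (0.24 ± 0.10 SE, adjusted p = 0.118).

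Some of these genes also carry snoRNA genes within their own span, on the same strand. By GENCODE M21 annotation, 7 of the 38 genes did so (18.4%), with 21 snoRNA genes in all, against 222 of 13896 tested protein-coding genes (1.60%). The hosts were Ncl, Nop56, Nop58, Dkc1, Wdr43, Gnl3 and Ppan, and 4 of these 7 rose, against 25 of all 38 genes. Over all 222 host genes the median log2 fold change was 0.22. It was −0.02 over all tested genes and 0.10 over those in the level range of the 38 genes. A box C/D snoRNA from each of Ncl, Nop56 and Nop58 is shown because the NOP56 and NOP58 proteins themselves bind this class of RNA, and Ncl had the highest fold change of the hosts, with box C (TGATGA) near the 5′ end and box D (CTGA) near the 3′ end in capitals. Snord82 lies in Ncl at chr1:86356261-86356330 on the minus strand. Snord110 lies in Nop56 at chr2:130275506-130275573, and Snord11 in Nop58 at chr1:59704790-59704873, both on the plus strand, and none of these touches an annotated exon of its host. In these poly(A)-selected libraries the 3 snoRNAs had at most 4.29, 9.65 and 2.85 normalised reads in any library, so their levels were not compared.
Snord82: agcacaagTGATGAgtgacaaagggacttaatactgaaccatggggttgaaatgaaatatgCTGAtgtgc
Snord110: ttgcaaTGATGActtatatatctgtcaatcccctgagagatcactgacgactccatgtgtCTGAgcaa
Snord11: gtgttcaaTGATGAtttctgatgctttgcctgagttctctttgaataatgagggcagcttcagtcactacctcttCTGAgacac

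The box H/ACA core proteins were split, with 2 of 4 higher and 2 that did not pass (median log2 fold change 0.36). Nhp2 (chromosome 11, 51619735 to 51623714), an RNA-binding core protein, had 16381, 12520 and 15442 normalised reads in KO libraries, against 7356, 8693 and 9348 in WT libraries. KO replicate 2 was the lowest of its group and still above every WT library (0.80 ± 0.13 SE, adjusted p = 0.00506). Gar1 (chromosome 3, 129824912 to 129831396), which binds the catalytic subunit, had 2440, 2315 and 2343 in KO libraries, against 1628, 1572 and 1716 in WT libraries. Values within each group were close together and the groups were far apart (0.53 ± 0.09 SE, adjusted p = 0.00706).

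Dkc1 encodes dyskerin, the pseudouridine synthase of the particle and a part of telomerase. It had 18603, 19964 and 19127 normalised reads in KO libraries, against 16663, 17626 and 16285 in WT libraries. All KO values were above all WT values, and the difference did not pass (0.19 ± 0.07 SE, adjusted p = 0.103). Nop10, the smallest core protein, had 11325, 11523 and 11753 in KO libraries, against 10226, 10650 and 10915 in WT libraries (0.12 ± 0.07 SE, adjusted p = 0.267), also without overlap. The sign of Dkc1 turned under quantile normalization (−0.039), and that of Nop10 both there (−0.053) and with a common total (−0.020). These 4 proteins form the same particle, so their levels were set side by side per kilobase of annotated transcript. Nhp2 had 14185 ± 1933 normalised reads per kilobase in KO libraries and 8124 ± 974 in WT libraries, and Nop10 had 10400 ± 193 in KO and 9556 ± 313 in WT (SD, n = 3 each). Dkc1 had 6859 ± 245 in KO and 6012 ± 247 in WT, and Gar1 had 1862 ± 51.7 in KO and 1289 ± 57.2 in WT. The order of the 4 means in KO libraries was Nhp2, Nop10, Dkc1, Gar1, whereas in WT libraries Nop10 came before Nhp2. Neighbouring means lay more than 1 SD of either apart. That SD is between libraries and does not cover the choice of 1 annotated transcript length per gene. Exons of Rmnd5b and Mpp1 on the opposite strand also overlap those of Nhp2 and Dkc1. The order between genes is therefore uncertain.

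**Figure D2:**
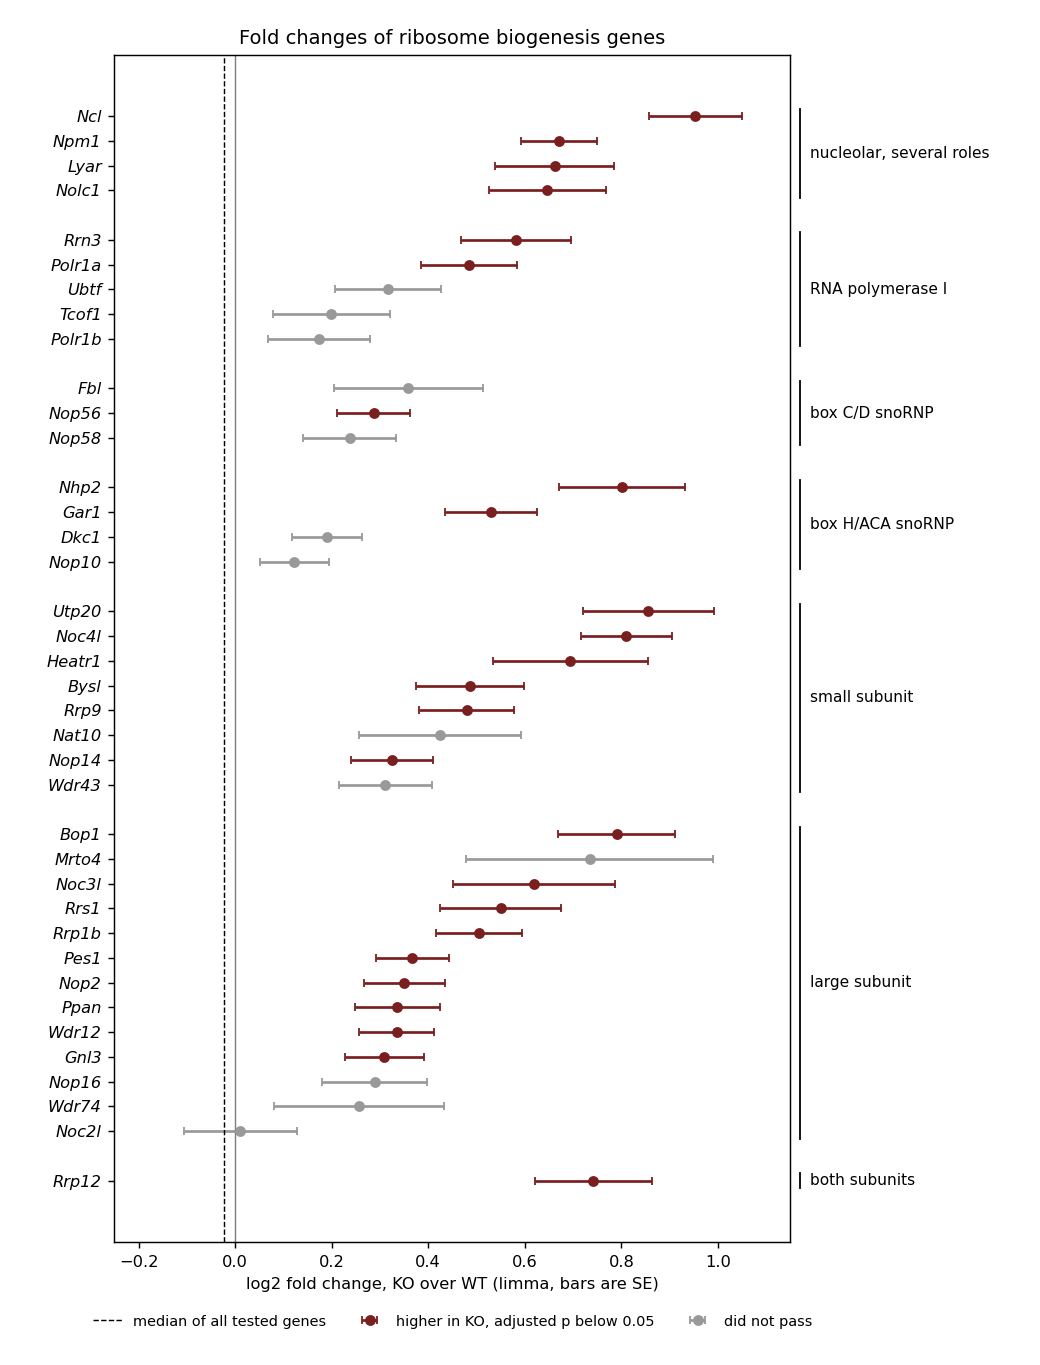
Fitted log2 fold change, KO over WT, of each of the 38 genes by role, with bars of 1 SE from limma. Dark points passed an adjusted p of 0.05 (25 genes), grey points did not (13 genes), and the dashed line is the median over all tested genes (−0.02).

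Among factors of small subunit assembly, 6 of 8 rose, 0 fell and 2 did not pass, with a median log2 fold change of 0.48. Noc4l (chromosome 5, 110648418 to 110653417) is known for early small subunit processing and export. It had 11538, 10286 and 11543 normalised reads in KO libraries, against 5804, 6825 and 6416 in WT libraries. The lowest KO library was far above the highest WT library (0.81 ± 0.09 SE, adjusted p = 0.00161). Utp20 (chromosome 10, 88746607 to 88826804), a large helical repeat protein of the small subunit processome, had 2774, 3096 and 2866 in KO libraries, against 1903, 1594 and 1369 in WT libraries. The groups did not overlap (0.86 ± 0.14 SE, adjusted p = 0.00466). Rrp9 (chromosome 9, 106475963 to 106485424) is a protein of the box C/D snoRNP that directs the early cleavages of pre-rRNA. It had 3811, 3996 and 3981 in KO libraries, against 2549, 3070 and 2856 in WT libraries. The KO libraries all stood higher (0.48 ± 0.10 SE, adjusted p = 0.0121), and without KO replicate 3 the adjusted p was 0.0559.

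The other small subunit factors that rose were Heatr1, Bysl and Nop14, with log2 fold changes of 0.69, 0.49 and 0.33 and adjusted p between 0.0185 and 0.0291. Heatr1 acts in transcription and processing of pre-rRNA, and Bysl and Nop14 in maturation of the particle. All 3 calls were lost without KO replicate 3, where the adjusted p of Heatr1, Bysl and Nop14 were 0.0637, 0.066 and 0.132. Heatr1 also lost it without WT replicate 3 (adjusted p = 0.0561), and Nop14 without KO replicate 2 or any WT library (adjusted p between 0.055 and 0.0811) or with a common total (0.18, adjusted p = 0.149). Wdr43, a processome subunit, had 22461, 21226 and 22224 normalised reads in KO libraries, against 19206, 18576 and 15552 in WT libraries. KO values were all above WT values and the adjusted p was just over the threshold (0.31 ± 0.10 SE, adjusted p = 0.0522). It passed in 6 of 19 alternative settings, among them without WT replicate 1 (adjusted p = 0.0489) and in DESeq2 (adjusted p = 0.037). Nat10, the acetyltransferase of small subunit rRNA, had 3744, 5585 and 4633 in KO libraries, against 3006, 4028 and 3305 in WT libraries. KO replicate 1 lay below WT replicate 2 (0.42 ± 0.17 SE, adjusted p = 0.111), and without that KO library the difference passed (adjusted p = 0.0408).

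Factors of large subunit assembly rose in 9 of 13 cases, with 0 lower, 4 that did not pass and a median log2 fold change of 0.35. Bop1 and Pes1 encode subunits of the PeBoW complex, which is needed to process the large subunit rRNAs, and Wdr12 encodes the other one. Bop1 (chromosome 15, 76452996 to 76477269) had 10791, 12950 and 12157 normalised reads in KO libraries, against 5879, 7445 and 7507 in WT libraries. The groups were apart (0.79 ± 0.12 SE, adjusted p = 0.00413). Pes1 (chromosome 11, 3963975 to 3980004) had 9202, 9072 and 9151 in KO libraries, against 7107, 7430 and 6751 in WT libraries. The 3 KO values were close to each other and all higher (0.37 ± 0.08 SE, adjusted p = 0.0123), and without KO replicate 3 the adjusted p was 0.0592. Wdr12 rose with a log2 fold change of 0.33 (adjusted p = 0.0193). The calls of Pes1 and Wdr12 were lost with a common total (0.22 and 0.19, adjusted p = 0.0607 and 0.11) and with quantile normalization (0.21 and 0.15, adjusted p = 0.0807 and 0.219), while that of Bop1 held. Rrp1b (chromosome 17, 32036100 to 32062865), a nucleolar protein of pre-ribosomal particles, had 4294, 4698 and 4767 in KO libraries, against 3309, 3070 and 3314 in WT libraries. Its groups did not overlap (0.50 ± 0.09 SE, adjusted p = 0.00667).

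Noc3l, Rrs1, Nop2, Ppan and Gnl3 rose as well, with log2 fold changes between 0.31 and 0.62 and adjusted p between 0.0177 and 0.0334. Nop2 is an rRNA methyltransferase, Rrs1 helps to bring the smallest rRNA into the large subunit particle, and Gnl3 encodes nucleostemin, a nucleolar GTPase. Wdr12 and these 5 genes each lost the call without KO replicate 3, with adjusted p between 0.0673 for Rrs1 and 0.12 for Ppan. Calls were also lost without KO replicate 1 (Wdr12, Gnl3), KO replicate 2 (Noc3l, Nop2, Ppan, Gnl3), WT replicate 1 (Wdr12, Noc3l, Nop2, Ppan, Gnl3), WT replicate 2 (Noc3l, Nop2, Ppan) and WT replicate 3 (Wdr12, Noc3l, Gnl3), with adjusted p between 0.0515 and 0.0907. With a common total Nop2, Ppan, Gnl3 and Noc3l lost the call, at log2 fold changes of 0.21, 0.19, 0.17 and 0.48, and with quantile normalization Nop2, Ppan and Gnl3 did, at 0.19, 0.18 and 0.12.

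The 4 large subunit factors that did not pass differed in their spread. Mrto4, which occupies the place of the ribosomal stalk during assembly, had 4208, 4087 and 6344 normalised reads in KO libraries, against 2267, 4152 and 2516 in WT libraries. KO replicate 3 and WT replicate 2 each stood high in their group, and the groups overlapped (0.73 ± 0.26 SE, adjusted p = 0.0761). Without WT replicate 2 the difference passed (adjusted p = 0.0212). Nop16, a late nucleolar factor, had 9282, 7409 and 7936 in KO libraries, against 6227, 6637 and 7234 in WT libraries, without overlap (log2 fold change 0.29, adjusted p = 0.0954). Wdr74 had 4247, 5087 and 5407 in KO libraries, against 4439, 4910 and 3138 in WT libraries, and the groups overlapped (0.26 ± 0.18 SE, adjusted p = 0.348). Noc2l, which pairs with NOC proteins on early particles and is also known as an inhibitor of histone acetylation, had 12825, 17329 and 15614 in KO libraries, against 14235, 15798 and 15085 in WT libraries. The KO libraries lay on both sides of the WT libraries (0.01 ± 0.12 SE, adjusted p = 0.961), and its sign turned under 5 of 19 alternative settings, down to −0.20.

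Rrp12 (chromosome 19, 41862852 to 41896153), a transport factor of both subunits, had 5721, 5767 and 5916 normalised reads in KO libraries, against 2955, 4056 and 3481 in WT libraries. The KO libraries agreed closely with each other and stood above all WT libraries (0.74 ± 0.12 SE, adjusted p = 0.00516).

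Set side by side, 75% of the small subunit factors and 69.2% of the large subunit factors rose. Their medians differed by 0.13 on the log2 scale, with an SD of 0.0757 between libraries for that difference, and no test was made over the lists. The difference was 0.049 without WT replicate 1 and 0.21 with quantile normalization. In KO libraries the mean over the 8 small subunit factors lay 0.46, 0.62 and 0.57 above the WT mean on the log2 scale, and the mean over the 13 large subunit factors 0.33, 0.45 and 0.48 above it. Small minus large was thus 0.13, 0.17 and 0.09 in KO libraries, against 0.05, −0.02 and −0.03 in WT libraries. The values did not overlap; KO replicate 3 and WT replicate 1 were the closest. As a share of reads, the small subunit factors held 0.127% ± 0.00263 in KO and 0.0997% ± 0.00494 in WT libraries, and the large subunit factors 0.224% ± 0.00706 in KO and 0.192% ± 0.00672 in WT libraries (SD, n = 3 each). In the longer lists of textbook factors described next, the order of the medians was the other way round, with 0.35 for the small and 0.39 for the large subunit.

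**Figure D3:**
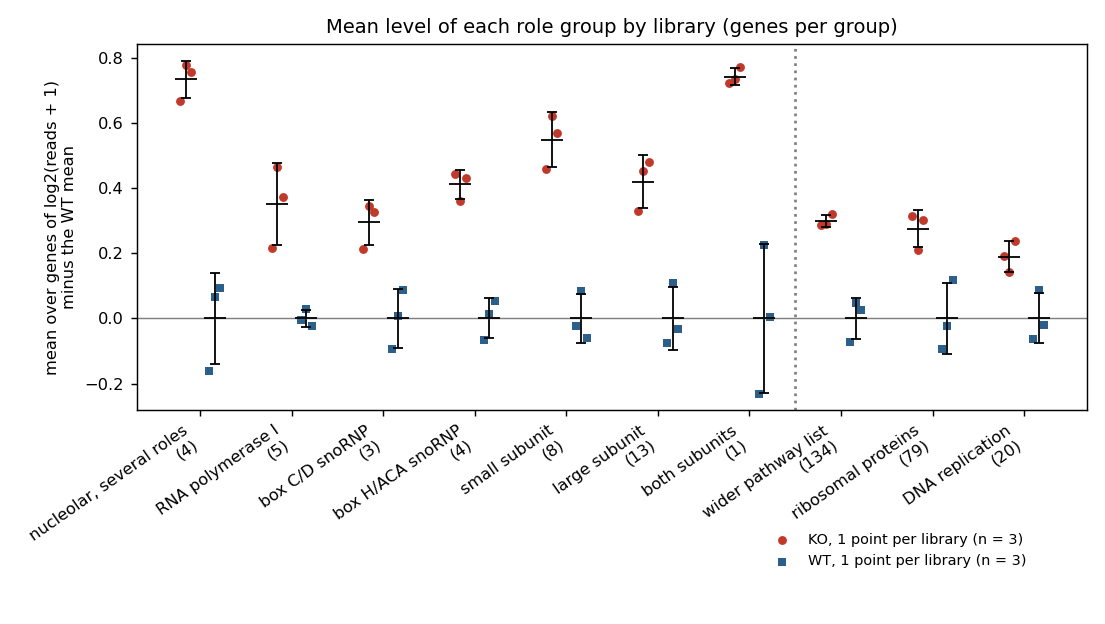
Mean over the genes of each role of log2(normalised reads + 1) minus the WT mean, with 1 point per library (circles KO, squares WT), a horizontal line at the group mean and bars of 1 SD (n = 3 each). KO points lie above WT points in each of the 7 roles, and the small subunit KO points at 0.46 to 0.62 overlap those of the large subunit at 0.33 to 0.48.

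Other genes of the pathway were listed by textbook role. Of 135 such genes 134 were tested. Of these, 63 rose (47.0%), 2 fell (1.49%) and 69 did not pass, with a median log2 fold change of 0.32. Over all tested genes 10.3% rose and 13% fell. Among the 7032 tested genes in the level range used above, 21.8% rose and 11.9% fell. That range was set by the genes listed first and not by these. For the small subunit, 25 of 46 rose (54.3%) and 0 fell. Pno1, an assembly factor at the platform of the small subunit, averaged 7673 ± 342 normalised reads in KO and 4237 ± 568 in WT libraries (0.86 ± 0.11 SE, adjusted p = 0.00242). Nol10 averaged 1142 ± 67.6 in KO and 631 ± 56.8 in WT libraries (0.86 ± 0.13 SE, adjusted p = 0.00402). For the large subunit, 29 of 52 rose (55.8%) and 1 fell. Ftsj3, an rRNA methyltransferase, averaged 14838 ± 929 in KO and 8674 ± 328 in WT libraries (0.77 ± 0.08 SE, adjusted p = 0.00122), and Nle1 averaged 832 ± 62.7 in KO and 483 ± 63.8 in WT libraries (0.79 ± 0.15 SE, adjusted p = 0.0101). Nop53, which brings the exosome to the particle, was the factor that fell, with a mean of 6237 ± 516 in KO and 7975 ± 441 in WT libraries (−0.36 ± 0.09 SE, adjusted p = 0.0282), a call lost in 6 of 19 alternative settings.

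Further RNA polymerase I genes had a median log2 fold change of 0.01, with 1 of 12 higher (8.33%, against 10.3% of all tested genes) and 1 lower. Polr1d, a subunit shared with RNA polymerase III, averaged 3562 ± 70.4 in KO and 2642 ± 210.4 in WT libraries (0.43 ± 0.09 SE, adjusted p = 0.0151), a call lost in 4 of 19 alternative settings. Cavin1, which is known as a release factor of the polymerase and as a caveolar coat protein, averaged 232 ± 30.4 in KO and 749 ± 139 in WT libraries (−1.68 ± 0.20 SE, adjusted p = 0.00172). Of 9 further snoRNP genes 3 rose (33.3%), among them Ruvbl2, an ATPase of particle assembly (0.69, adjusted p = 0.00271), and Naf1, an H/ACA assembly factor (0.92, adjusted p = 0.0187). Of 14 exosome and nuclease genes 4 rose (28.6%) and 0 fell, with a median of 0.15. The rises were led by Exosc9 (0.56, adjusted p = 0.007) and Mphosph6 (0.51, adjusted p = 0.025). This share and median were close to those of the 7032 tested genes in the level range used above, at 21.8% and 0.10. The difference was not tested. The calls of Naf1 and Mphosph6 were lost in 4 and 6 of 19 alternative settings. The nucleolar helicase Ddx21 rose (0.88 ± 0.11 SE, adjusted p = 0.00196).

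The genes of the ribosomal proteins, which these factors assemble, were measured at the RNA level only. Of 79 cytosolic ribosomal protein genes, 37 rose (46.8%), 2 fell (2.53%) and 40 did not pass, and their median log2 fold change was 0.30. Over all tested genes 10.3% rose and 13% fell. As a share of reads the groups overlapped. The 79 genes held 2.72%, 2.54% and 2.67% in KO libraries, against 2.38%, 2.41% and 2.69% in WT libraries. The 2 that fell, Rpl35 (−0.36) and Rps27 (−0.42), were named after their values were seen. Read counts of ribosomal protein genes are uncertain, because near-identical processed pseudogenes can take or give reads.

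**Figure D4:**
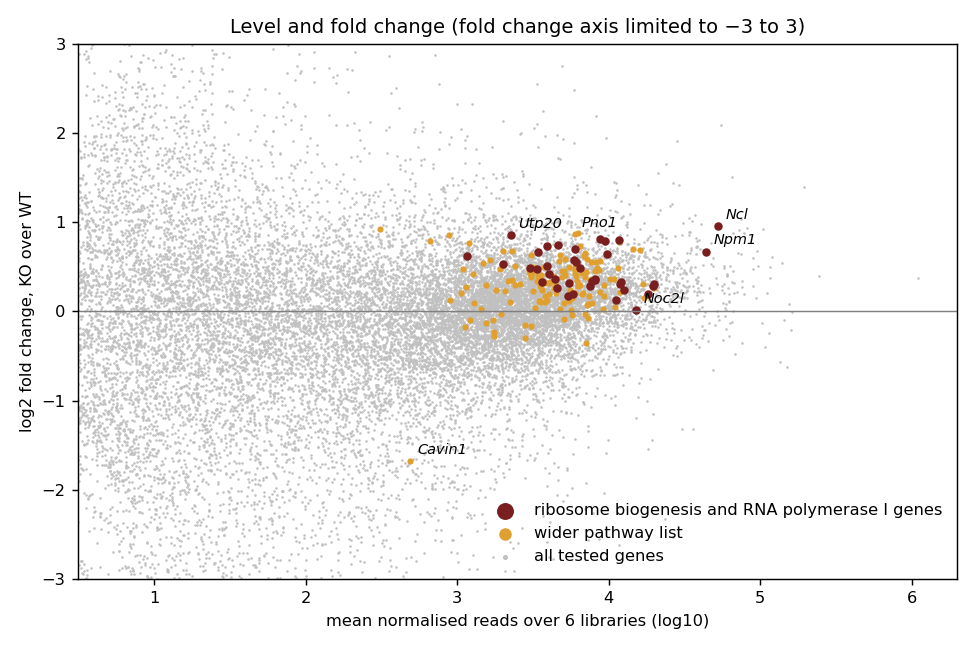
Log2 fold change, KO over WT, against the mean normalised reads over the 6 libraries on a log10 axis, for the 38 genes (large points), the wider pathway list (medium points) and all tested genes (small grey points), with fold changes beyond −3 and 3 and the lowest levels outside the axes. The 38 genes all lie at or above 0, from Noc2l at 0.01 to Ncl at 0.95, while Cavin1 of the wider list lies at −1.68.

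How far each call held was followed over 19 alternative settings. Of the 25 genes that rose, 10 kept the call in all of them: Ncl, Npm1, Lyar, Gar1, Nhp2, Noc4l, Utp20, Rrp1b, Bop1 and Rrp12. Nolc1 and Rrn3 lost the call in a single setting, limma without the intensity trend. The remaining 13 lost it both in that setting and without KO replicate 3, and 8 of the 25 lost it in 4 or more settings. Exons on the opposite strand overlapped those of 15 of the 38 genes, 12 of which rose, against 13 of the 23 without such an overlap. The sources used here do not say whether the libraries kept strand, so reads of such a gene and of its antisense partner cannot be told apart.

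**Figure D5:**
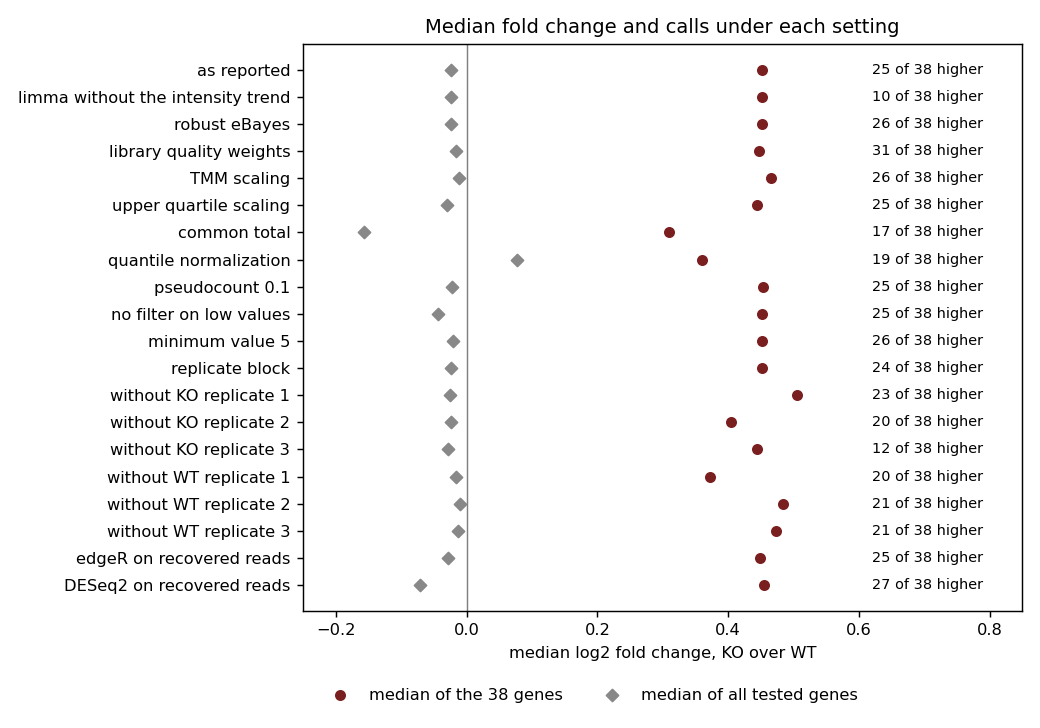
Median log2 fold change, KO over WT, of the 38 genes (circles) and of all tested genes (diamonds) under the reported fit and 19 alternatives, with the number of the 38 genes called higher at the right. The circles lie between 0.31 and 0.50 and the diamonds between −0.16 and 0.08, while the number called runs between 10 and 31.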

How the data were processed

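Poly(A) RNA of 6 libraries was sequenced, 3 KO and 3 WT by the labels. The submitters' processing notes name HISAT2, StringTie, mm8 and mm10, and the sources used here do not say how reads were counted. Per the file headers, which call it only expression, the authors deposited 1 signal value per gene and library. Every value (100%, within 0.01 of a read) was a whole multiple of a step per library of 0.863 to 1.17, so reads could be recovered: 46033994, 50992981 and 58692037 in KO and 37951985, 48665968 and 47815466 in WT replicates 1 to 3. Of the 52550 identifiers, 49035 matched GENCODE M21 (GRCm38) with the same version, and all of these with the same start and end. Every pair of libraries differed beyond sampling noise (chi-square per degree of freedom from 38.0 to 209.4). Reads carry no molecular identifiers, so counts of reads are not counts of molecules.

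The values are neither counts nor FPKM, so the test planned for scaled values was taken. Limma 3.58.1 in R 4.3.3 (eBayes, trend on) was fitted to log2(value + 1) of the 20136 genes that reached 1 in 3 or more libraries; p-values were two-sided and Benjamini-Hochberg adjusted over all of these genes, with a threshold of 0.05. Fold changes are on that scale and understate changes of low genes. On the recovered reads, edgeR 4.0.16 called 25 and DESeq2 1.42.0 called 27 of the 38 genes higher. The fit was run on simulated data with a small set of genes changed in both directions. Far more genes were called in the real libraries, so that run does not cover how calls depend on scaling. The 38 genes, all lists and the plan were chosen with earlier results of these data known, and no test was made over a list. Values per library were given for the 3 called genes of each role with the smallest adjusted p and for each gene that did not pass, and of the wider list the 2 largest rises and falls per role were named. The same replicate numbers in both groups did not pair the libraries. Alternatives covered scaling, eBayes settings, weights, pseudocount, filter, a replicate block, leaving out each library and the count tests. Riok2 was not analysed here.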

Additional observations from a re-analysis of the deposited data

How the results depend on the processing

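Of 1007 alternative values for single genes, 889 kept direction and side of the threshold, 93 lost the call, 17 gained it and 8 changed sign. The cause of a change was not tested. Without the intensity trend 10 of the 38 genes, 1071 of all genes and 26 of the wider list were higher, and 1 of that list lower. Library quality weights gave 3198 genes higher, and 4 of the wider list lower. With a common total, 1337 genes were higher and 3510 lower (27.6% of calls higher, against 44.1% as reported), 36 and 5 of the wider list were higher and lower, and medians were 0.31 for the 38 genes, 0.34 for the small and 0.21 for the large subunit. Since the median over all genes moved to −0.16, the 38 genes stood 0.47 above it. Quantile normalization gave 19 of the 38 genes higher, 0.28 above the median over all genes, with medians of 0.36 for the 38 genes, 0.19 for the large subunit and 0.21 for small minus large. Leaving out a library in turn gave 993 to 1787 genes higher and 1565 to 2604 lower, 12 to 23 of the 38 genes higher and 0 to 0 lower, and 32 to 51 of the wider list higher and 1 to 2 lower. Medians then ran from 0.37 to 0.50 for the 38 genes, 0.39 to 0.55 for the small subunit, 0.34 to 0.39 for the large and 0.049 to 0.16 for small minus large. Signs turned for Nop10 (−0.020 with a common total, −0.053 with quantile normalization), Dkc1 (−0.039 with quantile normalization) and Noc2l (−0.13 and −0.20 under the same settings, and −0.086, −0.01 and −0.03 without KO replicate 2, KO replicate 3 and WT replicate 1, with 0.13 as the highest value without a library). Libraries sharing a replicate number did not deviate together (correlations of −0.02, −0.01 and −0.02). With a replicate block 24 of the 38 genes were higher, 23 of them among the 25 reported, without Nop14 and Gnl3, and 1 of the wider list was lower. The least read of the 38 genes was Noc3l, with means of 1396 normalised reads in KO and 906 in WT libraries.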
